A study of Mus musculus with 4 samples.

Results

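The comparison described here set cultured mouse myoblasts that carried a Twist2 virus against myoblasts that carried a GFP virus, both after 5 days in differentiation medium. Its members were all genes of the deposited expression table, compared between the column of the Twist2 differentiation medium library and that of the GFP differentiation medium library. These were 3760 of 3760 listed genes and 2 of the 4 libraries of the study. The cells were myoblasts from skeletal muscle of adult C57BL/6 mice, labelled as Twist2-positive and grown on matrigel. All groups spent 24 h with a retrovirus and a further 24 h in growth medium, which held 20% fetal bovine serum. The virus carried GFP in the controls and Twist2-IRES-GFP in the other groups, an arrangement in which 1 transcript encodes both proteins. Differentiation medium held 2% horse serum. With 2 viruses and 2 media there were 4 groups. Each group was 1 library, so no difference below has a replicate check, and a library and its condition cannot be told apart.

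Twist2 is a transcription factor of the basic helix-loop-helix (bHLH) family. Such proteins bind DNA in pairs at short sequences called E-boxes, and Myod1 and Myog, the factors that drive muscle differentiation, belong to the same family and share its E-protein partners. Withdrawal of serum normally makes myoblasts leave the cell cycle, fuse into multinucleate myotubes and switch on the genes of the contractile apparatus. Twist proteins are known from connective tissue and skin precursors and as inhibitors of muscle differentiation.

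Values are CPM, counts per 1000000 reads of the library. A log2 ratio below is log2 of (CPM + 1) in the Twist2 library over (CPM + 1) in the GFP library, and negative values mean lower with Twist2. The added 1 CPM pulls the ratios of low genes towards 0. Beside some ratios stands an exact 95% interval (Clopper-Pearson, conditional on the summed reads) for the log2 ratio of the plain CPM values. The interval covers counting error only, since each group is 1 library. The reads carry no molecular identifiers and may be copies of each other, in which case the interval is too narrow even for counting error. For genes of few reads it can lie further from 0 than the ratio with the added CPM. A level in CPM is compared here only between libraries, never between genes, since it is not divided by transcript length.

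The GFP differentiation library held 9235281 reads and the Twist2 differentiation library 12362290 reads, and the growth medium libraries fell between these. Listed genes took 65.1% of the reads in the GFP differentiation library and 47.2% in that with Twist2. The table is a selection: every gene in it reached 10 CPM in 2 or more libraries and differed 2-fold or more from GFP growth medium in another library. Genes that are not listed were not analysed here. Markers of other cell types were few in the table. None of 13 endothelial, 14 macrophage and leukocyte or 9 Schwann and neural crest markers was listed. Of 16 fibroblast and fibro-adipogenic markers 3 were listed, Ly6a, Dcn and Smoc2, and their summed level was 2.38 CPM in the GFP differentiation library, 75.4 CPM in that with Twist2 and 79.8 and 148 CPM in GFP and Twist2 growth medium. In bulk RNA, fewer cells of a type and less RNA per cell cannot be told apart.

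The viral gene itself separated the libraries. Twist2 (chr1:91801461-91848028, plus strand, GRCm38) had 0 reads in the GFP differentiation library and 674 CPM in the Twist2 differentiation library, which is at least 2076-fold higher against a floor of 3 reads. A count of 0 allows a level of up to 0.325 CPM. In growth medium Twist2 was at 0.103 CPM with GFP and 1438 CPM with Twist2. The GFP libraries, labelled as made from Twist2-positive myoblasts, thus held almost no Twist2 reads. Reads from the virus and from the cell's own gene cannot be told apart in these values.

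In 3437 genes the higher of both libraries reached 10 CPM. Of these, 873 (25.4%) were 2-fold or more above GFP with Twist2 and 867 (25.2%) 2-fold or more below, together 50.6%. The other 1697 lay between. With scaling to reads that fell outside the table, as an alternative, 501 genes were higher and 1524 lower, because the median of all genes then moved by -0.57 on the log2 scale. With a minimum of 50 CPM, 415 were higher and 648 lower. The split between higher and lower genes therefore depends on the scaling and on the minimum, and single genes below are read against the median of all listed genes, -0.06 as deposited.

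As deposited, the large differences were more often upward in number and more often downward in reads. At 8-fold or more, 136 genes were higher and 29 lower, and at 16-fold or more 53 were higher and 1 lower. The 867 lower genes held 33.2% of all reads of the GFP library and 9.30% of those of the Twist2 library. The 873 higher genes held 3.09% and 14.0%. Of the 1740 genes 2-fold apart, the counting interval excluded equality for 1740, but it did so for 3436 of all listed genes, so the interval does not set these genes apart.

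**Figure D1:**
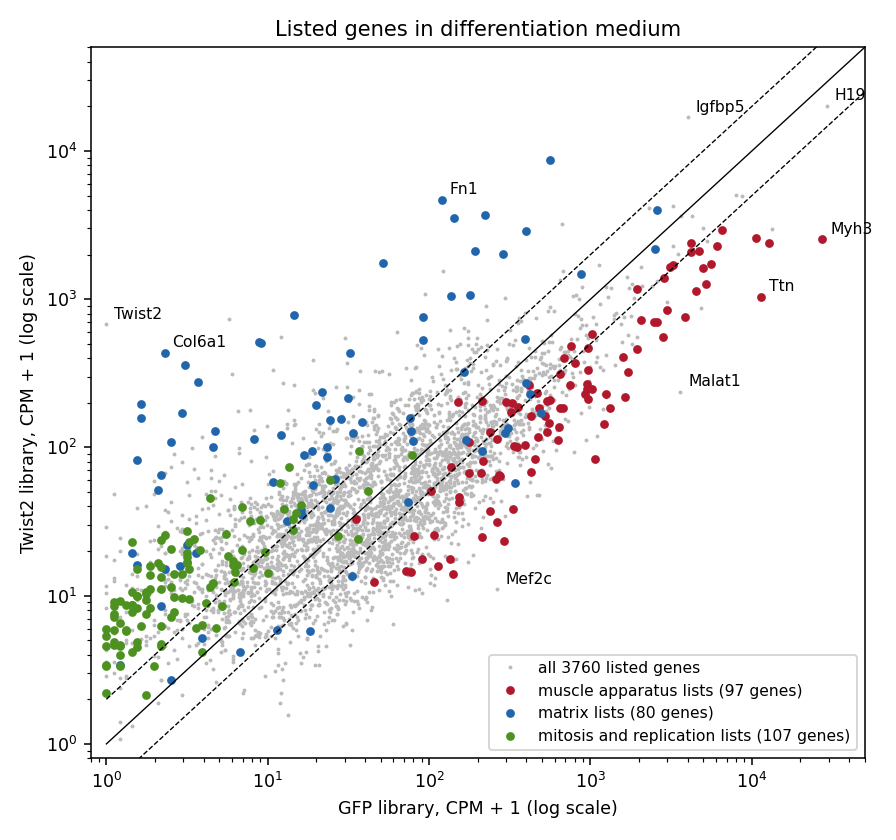
CPM + 1 of each listed gene in the GFP (horizontal) and Twist2 (vertical) differentiation medium libraries, both on log scales, with 1 point per gene, the solid line at equality and dashed lines at 2-fold. Of the 97 genes of the muscle apparatus lists 78 lie below the lower dashed line and 0 above the upper one; 57 of 80 matrix genes and 93 of 107 mitosis and replication genes lie above the upper one.

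The account below follows 29 gene lists, which were written with earlier results of these data known. Without a minimum CPM, as the lists are counted, 26.6% of all 3760 listed genes were higher by 2-fold or more and 23.1% lower. Each list's count is set against these shares. In 2108 of the 3760 the Twist2 differentiation level lay between GFP growth and GFP differentiation medium. It lay above both GFP libraries in 715 and below both in 937, and each list's positions are set against these counts. Symbols are those of the table.

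The factors that build muscle came first in order of role. Myod1, which commits cells to the muscle lineage, was at 809.7 CPM in the GFP and 1068 CPM in the Twist2 differentiation library, a log2 ratio of 0.40. Myog, the bHLH factor that runs terminal differentiation, was at 1075 and 378 CPM, a log2 ratio of -1.51 (interval -1.56 to -1.46). In growth medium Myog had been at 76.4 CPM with GFP and 3.52 CPM with Twist2. The Twist2 differentiation library thus held more Myog than either growth medium library and less than its GFP counterpart, while Myod1 was on the other side of equality.

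Mef2c, a MADS-box partner of the muscle bHLH factors, had the lowest ratio of all genes with 10 CPM or more. Its level was 264 CPM with GFP and 10.03 CPM with Twist2, a log2 ratio of -4.59 (interval -4.99 to -4.46), against 0.513 and 0.181 CPM in the GFP and Twist2 growth medium libraries. The related Mef2a was at 639 and 359 CPM, and Mef2d at 297 and 155 CPM, log2 ratios of -0.83 and -0.93 that stay short of 2-fold. Mef2c therefore stood at 3.79% of its GFP level where its relatives stood at 56.2% and 52.4%.

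Among the 15 listed myogenic regulators, 5 were at least 2-fold lower and 3 higher, with a median of -0.83. The median was -0.13 after length centring, in which each ratio is set relative to the median of genes of similar exon length, and -1.43, with 9 lower, with scaling to reads outside the table. The lower ones included, beside Mef2c and Myog, the cofactor gene Vgll3 (397 and 85.7 CPM, -2.20), Tead4 (181 and 46.1 CPM, -1.95), which encodes a DNA-binding partner of such cofactors, and Eya4 (191 and 38.2 CPM, -2.30). The higher ones were Pax7, Pax3 and Pitx3. Pax7, the marker of muscle stem cells, was at 4.01 CPM with GFP and 34.6 CPM with Twist2, a log2 ratio of 2.83 (interval 2.63 to 3.64), and Pax3, its embryonic relative, at 2.92 and 9.63 CPM. Pitx3, a homeobox factor expressed in differentiating muscle, was at 10.7 and 48.8 CPM (2.09). In growth medium Pax7 had been at 78.7 and 60.5 CPM, so its level in the Twist2 differentiation library lay between the 2 GFP libraries. Myf5 and Myf6 were not listed.

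The inhibitors of muscle bHLH factors stood higher with Twist2. Id proteins lack a DNA-binding region and hold E-proteins away from their partners. Id1 was at 4.11 CPM with GFP and 46.5 CPM with Twist2 (log2 ratio 3.22), Id2 at 9.10 and 55.5 CPM (2.48), and Id3 at 3.68 and 87.2 CPM (4.24). In growth medium the same genes were at 209, 329.8 and 421 CPM with GFP, so all 3 lay between the GFP libraries. The Notch target Hey1 was at 2.27 and 47.1 CPM (3.88), above both GFP libraries, since it was at 12.6 CPM in GFP growth medium. Twist1, the close relative of Twist2, was at 1.62 and 9.87 CPM (2.05). Of the 20 bHLH and Id genes listed 10 were at least 2-fold higher and 1 lower, Clock, a circadian factor (131 and 33.3 CPM, -1.94); the median was 0.92, and Twist2 itself is among the 10.

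**Figure D2:**
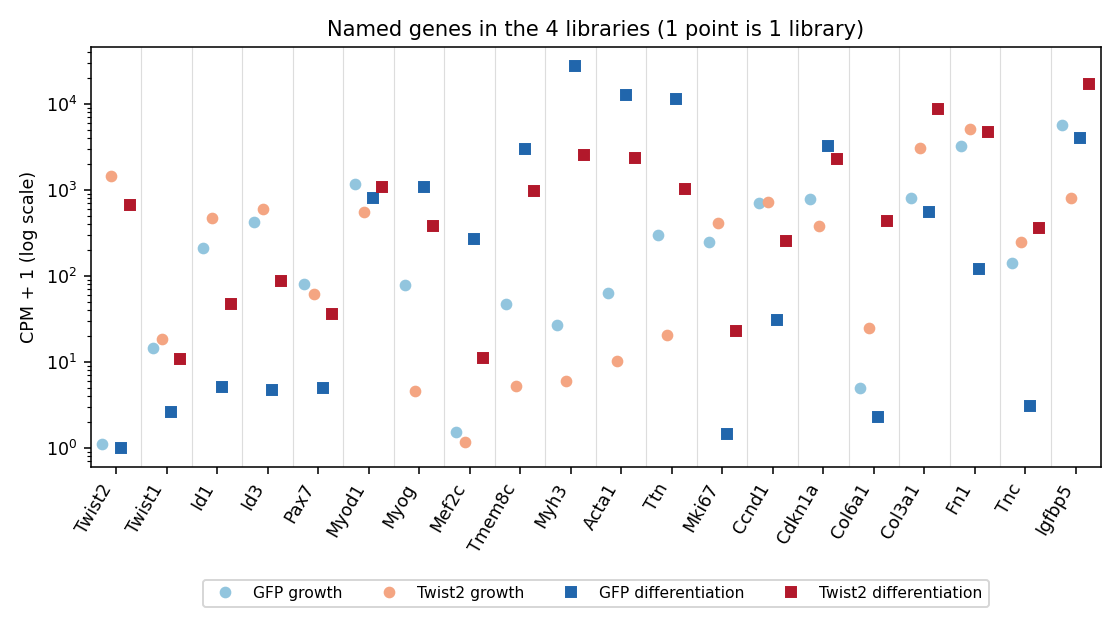
CPM + 1 on a log scale for 20 named genes in the 4 libraries, 1 point per library (circles for growth medium, squares for differentiation medium, blue for GFP, red for Twist2). Myog, Tmem8c, Myh3, Acta1 and Ttn of the Twist2 differentiation library lie between both growth medium libraries and the GFP differentiation library, and Col6a1, Col3a1, Tnc and Igfbp5 of that library lie above all other 3.

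Genes of the contractile apparatus were mostly lower with Twist2, and most stood above their growth medium levels. Myh3 (chr11:67078300-67102291, plus strand), the embryonic myosin heavy chain, was at 27313 CPM in the GFP differentiation library and 2528 CPM in that with Twist2, against 25.9 and 5.06 CPM in GFP and Twist2 growth medium. Its log2 ratio was -3.43 (interval -3.45 to -3.42), a 10.8-fold lower level and the largest loss in CPM of any gene. The Twist2 cultures had thus moved well above growth medium for this gene without reaching the GFP level.

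All 15 listed thick filament genes were at least 2-fold lower, with a median of -2.05. Myh8, the perinatal myosin, was at 1072 and 82.0 CPM (-3.69), Myh1, an adult fast myosin, at 210.4 and 23.8 CPM (-3.09) and Myh7, the slow myosin, at 428 and 67.8 CPM (-2.64). The M-band genes Myom2 (1629.5 and 218 CPM, -2.90) and Myom3 (1318 and 183 CPM, -2.84), whose proteins tie thick filaments together, differed in the same direction. Myosin heavy chain genes resemble each other in sequence, and how shared reads were counted is not given in the sources used here, so the split between them is uncertain. In all 15 the Twist2 level lay between the GFP growth and GFP differentiation levels.

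Of 20 thin filament genes 18 were at least 2-fold lower and 0 higher, with a median of -1.87. Acta1, skeletal muscle actin, was at 12797 CPM with GFP and 2381 CPM with Twist2 (-2.43). The troponin genes Tnni1 and Tnni2, slow and fast inhibitory subunits, were at 3863 and 763 CPM (-2.34) and at 275 and 63.0 CPM (-2.11). Lmod2, which nucleates actin filaments, was at 139 and 13.1 CPM (-3.31) and had the largest ratio of the list. The actin genes share sequence too. Acta2, smooth muscle actin, was at 7948 and 5050.1 CPM (-0.65), a difference under 2-fold, and its Twist2 level was 63.5% of the GFP level against 18.6% for Acta1.

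Titin, Z-disc and costamere genes were at least 2-fold lower for 26 of 31 and higher for 0, with a median of -1.96. Ttn, which spans the sarcomere as a molecular spring, was at 11355 CPM with GFP and 1031 CPM with Twist2 (-3.46), against 297 and 19.8 CPM in growth medium. Actn2, the Z-disc cross-linker, was at 1219 and 144 CPM (-3.08), Capn3, a titin-bound protease, at 292 and 22.2 CPM (-3.65) and Dmd, dystrophin, at 261 and 30.4 CPM (-3.06). For 30 of the 31 the Twist2 level lay between the 2 GFP libraries.

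The machinery that couples nerve, membrane and contraction differed less. Of 19 genes of excitation-contraction coupling 11 were at least 2-fold lower (median -1.39; 18 with scaling to reads outside the table), among them the calcium-binding Casq2 (1709 and 324 CPM, -2.40), the calcium channel Cacna1s (637 and 137 CPM, -2.21) and the triad protein Trdn (625 and 111 CPM, -2.48). Of 12 neuromuscular junction genes 8 were lower (median -1.07), or 5 under TMM (trimmed mean of M values) scaling. Chrng, the fetal acetylcholine receptor subunit, was at 804 and 373 CPM (-1.11), Chrnd at 745 and 264 CPM (-1.49), and the neuregulin receptor Erbb3 at 330.1 and 37.3 CPM (-3.11). For Chrng and Chrnd the Twist2 growth medium library had been further below its GFP counterpart, with ratios of -3.59 and -3.39.

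Muscle energy metabolism followed the same direction for 14 of 19 genes, with a median of -1.23 and 0 at least 2-fold higher. Ckm, muscle creatine kinase, was at 306 and 98.7 CPM (-1.62), the insulin-responsive glucose transporter Slc2a4 at 78.7 and 22.2 CPM (-1.78) and the muscle glycogen synthase Gys1 at 414 and 133 CPM (-1.63). Across the 97 genes of the thick filament, thin filament, titin and Z-disc, coupling and junction lists the summed level was 27.4% of that in the GFP differentiation library.

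The fusion list was split. Tmem8c, which encodes myomaker, a membrane protein required for myoblast fusion, was at 2972 CPM with GFP and 963 CPM with Twist2 (-1.62), against 45.6 and 4.25 CPM in growth medium. The membrane repair gene Trim72 (1196 and 330.4 CPM, -1.85) and the adhesion molecule Jam2 (440.3 and 98.5 CPM, -2.15) were also lower. In contrast Adam12 (2.17 and 21.03 CPM, 2.80), Anxa5 (49.9 and 329 CPM, 2.69) and Kirrel (41.5 and 229 CPM, 2.43) were higher. Of 19 genes 9 were at least 2-fold higher and 7 lower, and the median of 0.97 describes neither group. Of these, 4 were higher and 7 lower with scaling to reads outside the table.

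**Figure D3:**
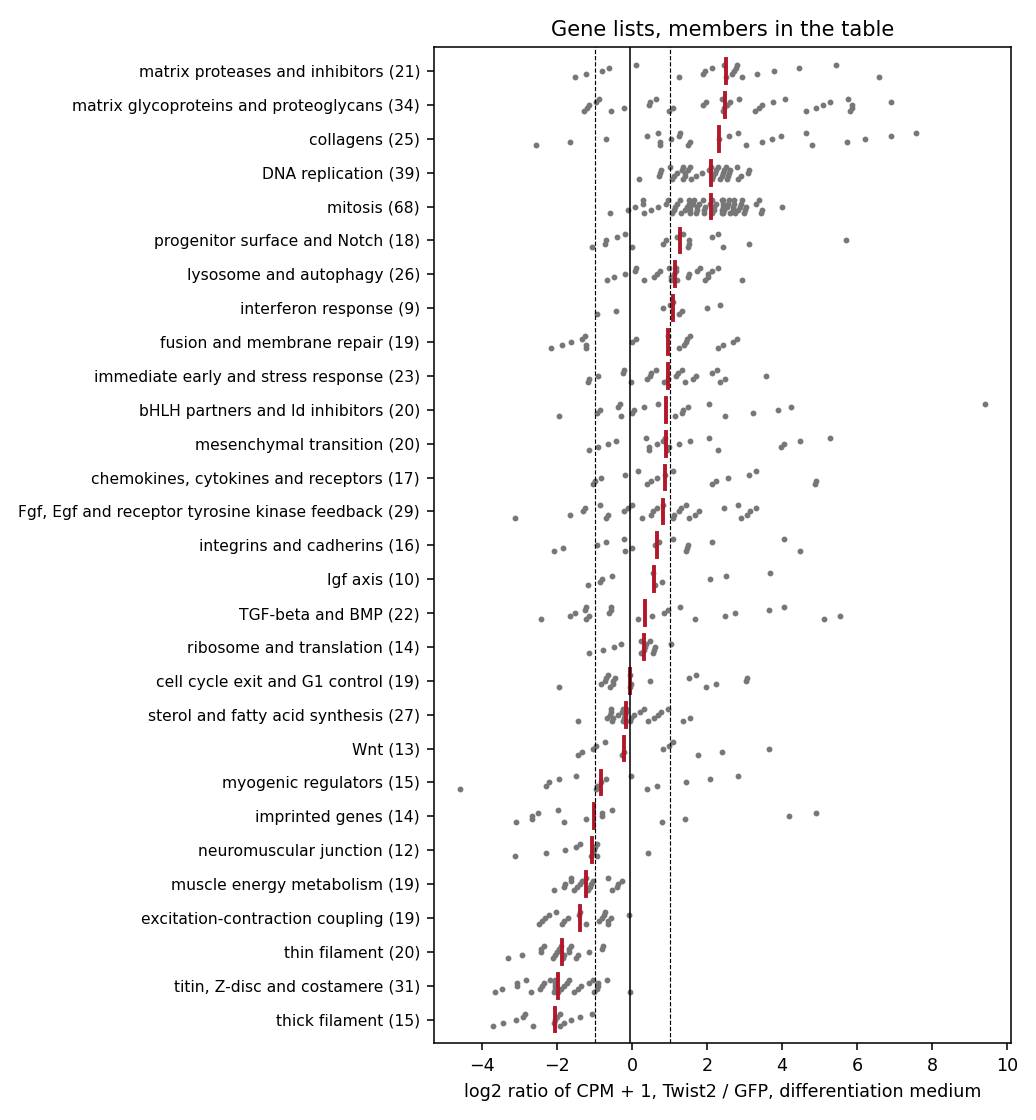
Log2 ratio of CPM + 1 (Twist2 over GFP, differentiation medium) of each listed member of the 29 gene lists, 1 grey point per gene, with the list's median in red, the median of all listed genes as a solid line and 2-fold as dashed lines; the number of listed members stands in brackets. Medians run from -2.05 for the thick filament to 2.49 for matrix proteases and inhibitors.

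Promoters of some of these genes are shown because E-boxes are the sequences that bHLH proteins read. The 6 were chosen after their values and the E-boxes of candidate genes had been seen, to set muscle genes that were lower beside matrix genes that were higher. Each run gives the 250 bases before the RefSeq start (GRCm38.p6), 5′ to 3′ on the strand of the gene, with E-boxes (CANNTG) in capitals. Myh3 lies at chr11:67078050-67078299, Mylpf, a fast myosin light chain gene, at chr7:127211358-127211607, Chrng at chr1:87205561-87205810 and Myog at chr1:134289754-134290003, all on the plus strand. Col3a1 lies at chr1:45311288-45311537 on the plus strand and Col5a3 at chr9:20815068-20815317 on the minus strand. The annotation places these windows outside exons, apart from 1 base of the Chrng window and 15 of the Myog window at their ends.
Myh3: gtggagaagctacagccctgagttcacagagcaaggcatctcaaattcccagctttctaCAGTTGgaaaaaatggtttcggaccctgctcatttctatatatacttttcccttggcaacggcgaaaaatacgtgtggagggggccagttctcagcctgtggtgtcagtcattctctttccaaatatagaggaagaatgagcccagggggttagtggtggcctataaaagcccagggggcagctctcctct
Mylpf: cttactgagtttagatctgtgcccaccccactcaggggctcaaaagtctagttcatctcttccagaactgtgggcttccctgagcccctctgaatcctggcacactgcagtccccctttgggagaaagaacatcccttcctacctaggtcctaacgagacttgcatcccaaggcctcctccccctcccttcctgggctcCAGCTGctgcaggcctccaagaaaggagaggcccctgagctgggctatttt
Chrng: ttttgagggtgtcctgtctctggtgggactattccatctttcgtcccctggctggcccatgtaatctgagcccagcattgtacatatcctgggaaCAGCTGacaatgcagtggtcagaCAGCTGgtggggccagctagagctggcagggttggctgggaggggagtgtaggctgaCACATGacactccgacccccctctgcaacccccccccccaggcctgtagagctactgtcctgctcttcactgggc
Myog: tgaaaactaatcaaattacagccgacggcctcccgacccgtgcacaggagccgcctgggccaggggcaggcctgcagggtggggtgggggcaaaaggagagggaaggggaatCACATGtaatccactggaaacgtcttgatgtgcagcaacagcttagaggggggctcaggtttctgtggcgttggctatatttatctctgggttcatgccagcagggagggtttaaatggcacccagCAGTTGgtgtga
Col3a1: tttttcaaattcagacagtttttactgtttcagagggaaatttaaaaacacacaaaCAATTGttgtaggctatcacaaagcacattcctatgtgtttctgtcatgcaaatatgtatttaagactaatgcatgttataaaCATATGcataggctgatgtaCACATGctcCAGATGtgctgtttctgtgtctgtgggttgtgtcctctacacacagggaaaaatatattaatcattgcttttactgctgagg
Col5a3: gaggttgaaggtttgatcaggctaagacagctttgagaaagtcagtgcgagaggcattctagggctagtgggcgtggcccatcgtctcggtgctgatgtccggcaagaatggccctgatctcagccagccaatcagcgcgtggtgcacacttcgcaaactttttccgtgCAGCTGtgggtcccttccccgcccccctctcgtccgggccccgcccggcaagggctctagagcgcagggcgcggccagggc

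Since the genes were chosen with values and E-boxes seen, whether these sequences sort by direction is not a result. Mylpf (10646 CPM with GFP and 2577 CPM with Twist2) holds 1 E-box of the form CAGCTG and Chrng holds 2, while Myh3 and Myog hold none of that form. Col5a3 holds 1 CAGCTG and was higher with Twist2, and Col3a1 holds 4 E-boxes of other forms. Windows of 300 bases, 250 before to 50 after the start, were available for 58 of the 78 muscle apparatus genes that were 2-fold lower. They were available for 38 of the 57 matrix genes that were 2-fold higher. Over these whole windows CAGCTG was found in 24 of the 58 (41.4%) and in 11 of the 38 (28.9%). The share was 16.1% among all 27025 genes with a window and 16.9% among the 2961 listed genes with one. Any CANNTG was present in 81.0%, 73.7%, 72.1% and 63.2% of the same sets. Among listed genes with a window, CAGCTG was in 19.5% of the 2-fold lower, 18.1% of the 2-fold higher and 15.4% of the other genes. CAGCTG reads the same on both strands and is itself 1 of the CANNTG forms, and the first window of a gene was used where RefSeq gives several. A match describes letters, not a bound site.

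Cell cycle genes were higher with Twist2, and mitosis genes nearly all stayed below their growth medium level. Mki67, the proliferation marker, was at 0.433 CPM with GFP (4 reads) and 22.0 CPM with Twist2 (272 reads), a log2 ratio of 4.0 with a counting interval of 4.29 to 7.55 for the plain values. In growth medium Mki67 had been at 248 and 411 CPM. The Twist2 differentiation library therefore held many times more Mki67 than its GFP counterpart and a small part of the growth medium level.

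Of 68 mitosis genes 58 were at least 2-fold higher and 0 lower (median 2.09), although only 27 of the 68 reached 10 CPM in either library. With a pseudocount of 5 CPM the count was 34 and the median 1.005, and with 0.1 CPM 59 and 3.28. Of 39 replication genes 35 were higher and 0 lower (median 2.10). Top2a, the topoisomerase that untangles chromosomes, was at 3.36 and 44.6 CPM, Ccna2, cyclin A2, at 1.19 and 22.9 CPM and Uhrf1, which maintains DNA methylation at replication forks, at 2.17 and 26.5 CPM. For 66 of the 68 mitosis genes and 31 of the 39 replication genes the Twist2 level lay between the GFP libraries. The other 8 replication genes stood above both, such as Chaf1b, a chromatin assembly factor subunit (0.866 and 14.8 CPM, against 9.34 and 11.7 CPM in growth medium). The mitosis list summed to 256 CPM with GFP and 849 CPM with Twist2 in differentiation medium, against 4719 and 7456 CPM in growth medium. The replication list summed to 254 and 837 CPM, against 1378 and 1707 CPM, so it stood closer to growth medium. At this depth 6 of the mitosis genes had 0 reads in the GFP differentiation library, so their ratios rest on the added CPM.

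Genes of the list of cell cycle exit and G1 control did not differ in 1 direction. Cdkn1a, the inhibitor p21 that marks exit from the cycle, was at 3223 CPM with GFP and 2286 CPM with Twist2 (-0.50), both above the 787 and 382 CPM of growth medium. Rb1, the retinoblastoma protein that keeps myotubes out of the cycle, was at 152 and 38.4 CPM (-1.95). Ccnd1, cyclin D1, was at 30.0 and 254 CPM (3.04), and in growth medium at 700.0 and 732 CPM. Of 19 such genes 6 were at least 2-fold higher and 1 lower, with a median of -0.06 that is 0.06 under TMM scaling and 0.16 after length centring. Higher were 5 and lower 9, with a median of -0.65, when scaled to reads outside the table, so the balance of this list depends on the scaling.

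After Twist2 itself, the highest ratio with 1 CPM added was that of a matrix gene. Col6a1 (chr10:76708792-76726168, minus strand), a chain of the collagen VI microfibril, was at 1.30 CPM with GFP and 433 CPM with Twist2, a log2 ratio of 7.56 (interval 7.58 to 9.34), against 4.002 and 23.9 CPM in growth medium. Col6a3, a second chain of the same microfibril, was at 0.650 and 195 CPM (6.89). After length centring Col6a3 stood above Col6a1, at 7.59 against 7.31, so the rank depends on the setting. Both genes were far above either growth medium library.

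Of 25 collagen genes 18 were at least 2-fold higher and 2 lower, with a median of 2.32. Col3a1, fibrillar collagen III, was at 559 and 8749.8 CPM (3.96), the second largest gain in CPM of any gene. Basement membrane Col4a1 was at 142 and 3540.1 CPM (4.63), and Col5a3 at 2.71 and 274 CPM (6.21). The 2 lower members were Col25a1, a transmembrane collagen of muscle needed for its innervation (339 and 56.5 CPM, -2.56), and Col7a1, the anchoring fibril collagen (17.3 and 4.77 CPM, -1.67). For 18 of the 25 the Twist2 level was above both GFP libraries.

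Matrix glycoproteins and proteoglycans were at least 2-fold higher for 23 of 34 and lower for 3 (median 2.49). Fn1, fibronectin, was at 119 CPM with GFP and 4685 CPM with Twist2 (5.28), near the 3248 and 5150.4 CPM of growth medium. Tnc, tenascin C, an adhesion-modulating protein of regenerating muscle, was at 2.06 and 361 CPM (6.89). The elastic fibre genes Fbn1 (8.12 and 506 CPM, 5.80) and Fbln2 (7.80 and 514 CPM, 5.87) and the proteoglycan Vcan (1.95 and 171 CPM, 5.87) differed in the same direction. Has2, Ogn and Gpc4 were the 3 lower members, with ratios of -1.29, -1.20 and -1.16.

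Enzymes that remodel matrix were higher for 16 of 21 and lower for 2 (median 2.49). Plat, tissue plasminogen activator, was at 0.650 and 156 CPM (6.58), Mmp2, a gelatinase, at 1.52 and 109 CPM (5.45) and Timp3, a protease inhibitor bound to matrix, at 3.57 and 99.3 CPM (4.46). Mrc2, a receptor that takes up collagen for degradation, was at 4.76 and 737 CPM (7.0), against 36.3 and 303 CPM in growth medium. The aggrecanase genes Adamts5 (492 and 170 CPM, -1.53) and Adamts1 (293 and 124 CPM, -1.24) were the 2 lower members. Summed over the 80 genes of the 3 matrix lists, the Twist2 level was 3.98 times the GFP level.

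The 3 fibroblast markers in the table were at least 2-fold higher with Twist2, but only 1 of them, Dcn, reached 10 CPM in either differentiation library. For 2 of the 3 the Twist2 level lay between the GFP libraries. Dcn, decorin, was at 1.19 CPM with GFP and 64.6 CPM with Twist2, against 1.95 and 10.6 CPM in growth medium. Ly6a, also a marker of fibro-adipogenic cells, had 0 reads with GFP and 3.32 CPM with Twist2 in differentiation medium, and 10.98 and 32.9 CPM in growth medium. Spp1, osteopontin, a secreted phosphoprotein also made by bone cells, was at 221 and 3707 CPM (4.06). Whether other cells took part in the matrix difference was not tested.

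Adhesion and mesenchymal genes were mixed. Of 16 integrins and cadherins 7 were at least 2-fold higher and 2 lower (median 0.65), or 3 and 4 with scaling to reads outside the table. Cdh11, a mesenchymal cadherin, was at 11.4 and 273 CPM (4.47), and Itgb3 at 1.30 and 36.9 CPM (4.04), while Itga7, the laminin receptor of muscle fibres, was at 4966 and 3042 CPM (-0.71). Of 20 genes of mesenchymal transition 8 were higher and 1 lower (median 0.90), or 6 and 4 with that scaling. Among the higher ones were Snai2, a repressor of epithelial genes, at 5.85 and 32.4 CPM (2.29) and Sox4 at 3.46 and 68.9 CPM (3.97). Gja1, the gap junction protein connexin 43, was at 2.82 and 268 CPM (6.14), and Gja5, connexin 40, at 186 and 17.7 CPM (-3.32).

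As deposited, signalling families ranged from a near-even split of higher and lower genes to few or no lower ones. Of 22 genes of TGF-beta and BMP signalling 8 were at least 2-fold higher and 7 lower (median 0.34, or -0.23 with scaling to reads outside the table). These were 36.4% and 31.8% of the list, against 26.6% and 23.1% of all listed genes. Among ligands, Inhbb, an activin subunit, was at 1.62 and 89.7 CPM (5.11), Tgfb1 at 18.6 and 108 CPM (2.47) and Mstn, myostatin, at 48.3 and 14.6 CPM (-1.66). The antagonist Fst, follistatin, which binds activin and myostatin, was at 507 and 92.9 CPM (-2.43). Ligands thus stood on both sides of the GFP level. Fstl1, a secreted follistatin-like protein, was at 11.04 and 558 CPM (5.54).

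Of 18 progenitor surface and Notch genes 10 were at least 2-fold higher and 1 lower (median 1.28), or 5 and 3 with scaling to reads outside the table. Notch3, a receptor of quiescent muscle stem cells and of pericytes, was at 4.98 CPM with GFP and 313 CPM with Twist2 (5.71), above the 126 and 71.5 CPM of growth medium. The syndecans Sdc1 (35.6 and 195 CPM, 2.42) and Sdc3 (26.0 and 132 CPM, 2.30) were higher, and the Notch ligand Jag2 was lower (83.1 and 39.5 CPM, -1.05). Of 14 markers of pericytes and smooth muscle, a list that also holds Notch3, 7 were listed, 2 higher and 1 lower, with a median of 0.17. Their summed level was 8118 CPM with GFP and 5529 CPM with Twist2, where Acta2, smooth muscle actin, was alone at 7948 and 5050.1 CPM. The sum and the median thus lie on opposite sides of equality.

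The 3 genes of insulin-like growth factor signalling that were at least 2-fold higher encode binding proteins. Igfbp5, which is induced early in muscle differentiation, was at 4025 CPM with GFP and 16858 CPM with Twist2 (2.07), the largest gain in CPM of any gene, although in growth medium it was at 5739 and 813 CPM. Igfbp3 was at 121 and 1553 CPM (3.67) and Igfbp7 at 28.0 and 162 CPM (2.49). The ligand Igf1 was at 51.3 and 22.0 CPM (-1.19) and the receptor Igf1r at 85.2 and 127 CPM (0.57). Of the 10 listed genes 3 were thus higher, a share near the 26.6% of all listed genes, and 1 was lower, with a median of 0.59. Higher were 3 and lower 4 when scaled to reads outside the table, and 5 and 0 after length centring.

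Receptor tyrosine kinase genes were at least 2-fold higher for 14 of 29 and lower for 4 (median 0.83), or 9 and 7 with scaling to reads outside the table. The ephrins Efnb2 (8.77 and 85.3 CPM, 3.14) and Efna5 (1.19 and 20.6 CPM, 3.30), Pdgfc (22.7 and 175 CPM, 2.89) and the receptor Egfr (1.95 and 20.1 CPM, 2.84) were higher, and Erbb2 (206 and 64.2 CPM, -1.66) was lower together with its partner Erbb3. Of 13 Wnt genes 4 were higher and 3 lower (median -0.21), with the effector Lef1 at 6.82 and 40.4 CPM (2.41) and the receptor Fzd7 at 55.5 and 21.5 CPM (-1.33). Both shares of the Wnt list are close to those of all listed genes, and the counts were 3 and 5 with scaling to reads outside the table.

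Chemokine and cytokine genes were at least 2-fold higher for 8 of 17 and lower for 1 (median 0.87), with 3 lower after length centring. Cxcl12, a chemokine of stromal cells, was at 2.92 and 117 CPM (4.91) and its receptor Cxcr4 at 2.60 and 29.9 CPM (3.10). Il1rl1, the interleukin 33 receptor, had 0 reads in both GFP libraries and was at 28.2 CPM with Twist2, at least 86.9-fold higher against a floor of 3 reads, and at 26.7 CPM in Twist2 growth medium. The ligand Cxcl12 and its receptor thus stood on the same side of GFP, and Il1rl1 was found in both Twist2 libraries. Of 9 interferon response genes 6 were higher and 0 lower (median 1.09). Only 2 were higher with scaling to reads outside the table, where 2 were lower, and only 2 after length centring, where 1 was lower. Tap1, a peptide transporter of antigen presentation, was at 6.61 and 29.2 CPM (1.99). Of 23 immediate early and stress genes 11 were higher and 2 lower (median 0.96; 7 and 3 with scaling to reads outside the table), led by Ddit4, an inhibitor of mTOR signalling, at 18.7 and 232 CPM (3.56).

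Lysosome genes were at least 2-fold higher for 16 of 26 and lower for 0 (median 1.14), or 8 and 2 with scaling to reads outside the table. The protease Ctsl was at 223 and 905 CPM (2.02) and the mannosidase Man2b1 at 21.4 and 96.7 CPM (2.12). For 21 of the 26 the Twist2 level was above both GFP libraries. Sterol and fatty acid synthesis differed little: 2 of 27 were higher and 1 lower, with a median of -0.17, although 7 were lower with scaling to reads outside the table. Scd2, a desaturase, was at 4279.8 and 3641 CPM (-0.23). The ribosome and translation list was similar, with 1 of 14 higher, 1 lower and a median of 0.33 (-0.26 with scaling to reads outside the table). Its share of differing genes is below that of all listed genes in both directions.

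Imprinted genes, which are expressed from 1 parental copy and often control growth, were at least 2-fold lower for 7 of 14 and higher for 3 (median -1.005). Of the 7 lower ones 5 were in the longest of 5 groups by exon length, where the median of all listed genes was -0.70. Among these were the long noncoding RNAs Meg3 (12.3 and 0.566 CPM, -3.09), Rian (10.9 and 0.890 CPM, -2.66) and Kcnq1ot1 (18.5 and 2.43 CPM, -2.51). After length centring 6 of the 14 were lower and 4 higher, with a median of -0.85. The part of length in this count was not tested beyond that. H19, a long noncoding RNA, was at 29045 CPM with GFP and 20176 CPM with Twist2 (-0.53). Peg10 was at 1952 and 552 CPM (-1.82), and Mest at 29.1 and 548 CPM (4.19). C1qtnf3, a secreted protein outside the lists, had the third largest loss in CPM, from 13334 to 2966 (-2.17).

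The growth medium libraries place these levels. Of the 873 higher genes 408 lay between GFP growth and GFP differentiation medium and 465 above both. Of the 867 lower genes 359 lay between and 508 below both. By definition no higher gene can lie below both and no lower gene above both. Over all 3760 listed genes, without a minimum CPM, 2108 lay between, 715 above both and 937 below both. The contrast of Twist2 against GFP was larger in differentiation medium than before it in number of genes: in growth medium 184 listed genes (4.89%) were at least 2-fold higher and 434 (11.5%) lower, without a minimum CPM. The contrasts in the 2 media share no library. Higher in both were 137 genes, which is 13.7% of those higher in differentiation medium and 74.5% of those higher in growth medium. Most genes that stood higher with Twist2 before differentiation were thus higher in differentiation medium as well. Lower in both were 225 genes, 25.9% and 51.8%. Opposite ways were 35 genes higher in differentiation and lower in growth medium and 4 the reverse. The 35 were 8.06% of the 434 genes lower in growth medium, against 26.6% higher among all listed genes. The 4 were 2.17% of the 184 higher in growth medium, against 23.1% lower among all listed genes. The difference between the media was not tested, with 1 library a group.

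**Figure D4:**
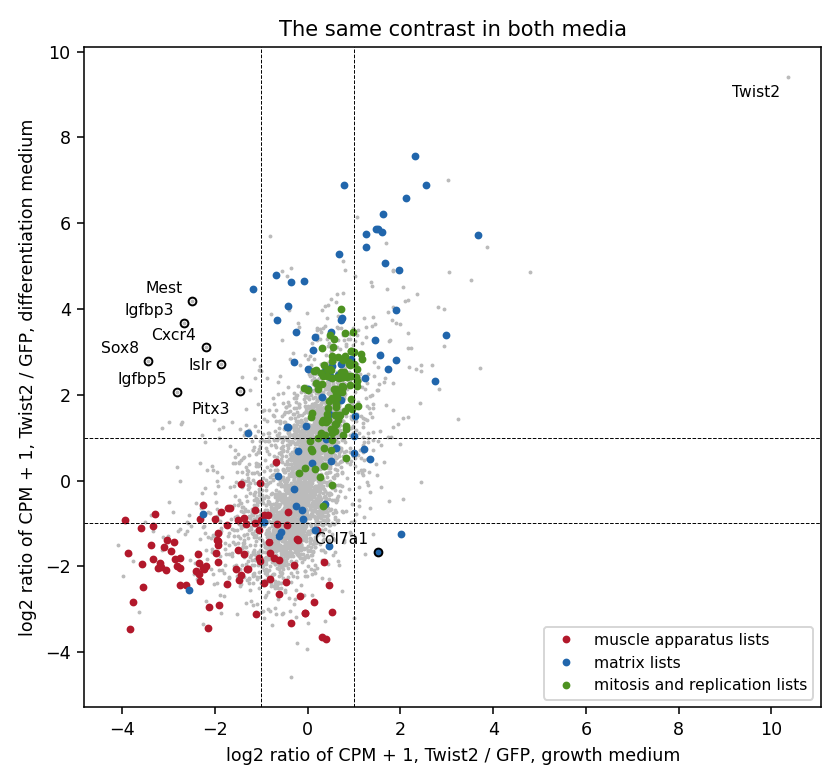
Log2 ratio of CPM + 1, Twist2 over GFP, in growth medium (horizontal) and differentiation medium (vertical) for each listed gene, with dashed lines at 2-fold and the gene lists coloured. Most mitosis and replication genes lie above the upper dashed line and between the vertical ones, and 8 of the genes that are 2-fold opposite ways are named, 7 at upper left and Col7a1 at lower right.

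The ratios differed with gene length. In 5 equal groups by summed exon length, from the shortest (303 to 2946 bases) to the longest (8782 to 116825), the median ratio was 0.41, 0.25, -0.02, -0.22 and -0.70. In growth medium the corresponding medians ran from 0.06 to -0.34. Long nuclear RNAs, chosen after their values were seen, were lower in the Twist2 differentiation library than in the other 3: Malat1 was at 236 CPM there against 3610.2 CPM with GFP, Neat1 at 149 against 720.2, Xist at 118 against 1097 and Kcnq1ot1 at 2.43 against 18.5. The precursor ribosomal RNA Rn45s was at 4144 CPM with Twist2 and 2312 CPM with GFP. The part of length or of library preparation in these ratios was not tested.

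Among short genes most muscle and matrix lists kept their direction, and some other lists did not. Of all genes of the shortest group with 10 CPM in the higher library, 30.2% were 2-fold higher and 15.6% lower. For the next group these shares were 30.9% and 17.9%. In the shortest 2 length groups 13 of 14 thin filament genes, 14 of 17 titin and Z-disc genes, 3 of 3 thick filament genes and 12 of 16 metabolism genes were at least 2-fold lower. There 3 of 9 coupling genes and 5 of 8 junction genes were lower, and 8 of 8 matrix proteases, 3 of 4 collagens and 25 of 29 mitosis genes were higher. Of 11 matrix glycoprotein genes there 6 were higher and 3 lower. The fusion list turned there, with 2 of 10 higher, 5 lower and a median of -0.62. The 5 myogenic regulators there had a median of 0.40, with 1 higher and 2 lower. In the longest group 5 of 9 collagens were higher and 2 lower. Of all genes of that group with 10 CPM in the higher library, 17.9% were higher and 41.35% lower. After each ratio was set relative to the median of its length group, 869 genes were higher and 785 lower.

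**Figure D5:**
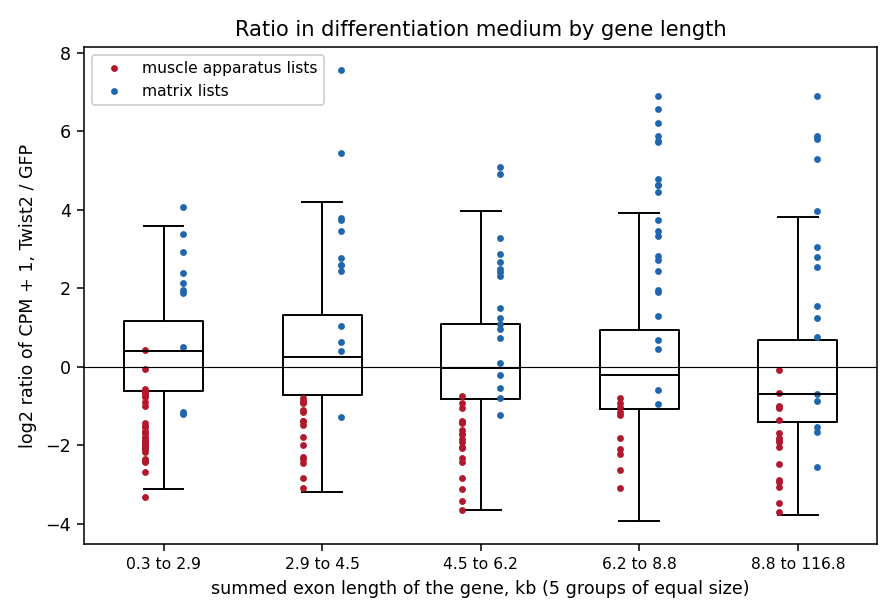
Log2 ratio of CPM + 1 (Twist2 over GFP, differentiation medium) by summed exon length in kb, with boxes for the quartiles of all listed genes in 5 groups of equal size, whiskers to the furthest gene within 1.5 quartile ranges of the box, and points for muscle apparatus (red) and matrix (blue) genes. The box medians fall from 0.41 to -0.70 while most red points stay below and most blue points above 0 in each group.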

How the data were processed

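The 4 libraries, 1 a group, were made from total RNA, per the labels' protocols. GRCm38 (mm10), TopHat2 2.0.0 and DESeq2 1.6.3 appear in the submitters' processing notes with no role. Which counter, annotation and strand setting were used is not given in the sources used here, so reads of overlapping genes on opposite strands cannot be assigned. The authors deposited 1 table of 3760 genes in CPM, the share of a library's reads that fell on each gene, on a common scale. The table also holds the authors' log2 ratios to GFP growth medium, which matched log2 of (CPM + 1) within 1.3e-11 and were used only for that check.

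CPM values were whole multiples of the smallest step in each library (tolerance 0.001 reads, 100% of values), which gave reads and library totals of 9235281 to 12362290. For the Twist2 differentiation and GFP growth libraries too few low values exist for a separate check of that step. With 1 library a group no count test was possible, and no p-value is given. Ratios, intervals and counts of 2-fold genes (10 CPM in the higher library, except for lists) were computed in Python 3.11.15 with numpy 2.4.6, pandas 2.3.3 and scipy 1.17.1, and tested on simulated data. A gene at 0 reads was set against 3 reads.

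The comparison, the 29 lists and the markers were chosen with earlier results of these data known. Named genes were 17 fixed ones, the 12 highest and 12 lowest ratios, of each list up to 6 members with and 3 against its median and that of the highest CPM, the 6 largest CPM differences each way and 8 genes opposite between media. Some of these genes are not reported here. Of the symbols 3747 matched GENCODE M21 (GRCm38), 140 through older symbols. Promoters come from RefSeq (GRCm38.p6). Alternatives changed the pseudocount, the scaling, the CPM minimum and the treatment of length.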

Additional observations from a re-analysis of the deposited data

Results flagged for a closer look

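Between the 2 media 35 genes turned from at least 2-fold lower in growth medium to at least 2-fold higher in differentiation medium, and 4 the other way. These were 8.06% of the 434 genes lower in growth medium and 2.17% of the 184 higher there. Of all listed genes 26.6% were higher and 23.1% lower in differentiation medium, so turns were rarer than those shares. The 8 given here had the largest ratios when each such gene is ranked by the smaller of its 2 ratios, and the difference between the media was not tested, with 1 library a group. Igfbp5 had a log2 ratio of 2.07 in differentiation medium and -2.82 in growth medium, and Igfbp3, which also binds insulin-like growth factors, 3.67 and -2.68. Mest, an imprinted gene, had 4.19 and -2.50, and the chemokine receptor gene Cxcr4 3.10 and -2.19. Sox8, a transcription factor of satellite cells, had 2.78 and -3.44, with 17.7 CPM in GFP growth, 0.723 CPM in Twist2 growth, 2.82 CPM in GFP differentiation and 25.2 CPM in Twist2 differentiation medium. Pitx3, a homeobox factor expressed in differentiating muscle, had 2.09 and -1.46, and Islr 2.72 and -1.86. Col7a1 alone of the 8 was the other way round, with -1.67 in differentiation and 1.51 in growth medium.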

How the results depend on the processing

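No replicate could be left out and no paired analysis was possible because each group holds 1 library. The median log2 ratio of all listed genes was -0.045 with a pseudocount of 5 CPM, -0.12 with size factors, -0.62 with scaling to reads outside the table, 0.055 with TMM and 0.00 after length centring. Scaling to reads outside the table gave 501 higher and 1524 lower genes, and a minimum of 50 CPM gave 415 higher. That scaling gave, by list, 9 lower myogenic regulators, 18 lower coupling genes, 4 higher fusion genes, 5 higher progenitor and Notch genes, 9 lower cell cycle exit genes, 3 higher integrins and cadherins, 9 higher receptor tyrosine kinase genes, 5 lower Wnt genes, 2 higher interferon genes, 7 higher immediate early genes, 8 higher lysosome genes, 7 lower sterol genes and 0 higher ribosome genes. A pseudocount of 5 CPM left 34 higher mitosis genes and 0 higher ribosome genes, size factors 0 higher ribosome genes, and TMM 5 lower junction genes. Length centring gave 3 lower cell cycle exit genes, 5 higher Igf genes, 1 lower Wnt gene, 2 higher interferon genes and 0 higher ribosome genes. Why these counts moved was not tested. These counts are on the side of each list's median, and the others on that side stayed within 1.5 times those reported. On the other side, scaling to reads outside the table gave 3 lower bHLH, 3 progenitor and Notch, 1 mitosis, 6 matrix glycoprotein, 4 matrix protease, 4 integrin and cadherin, 4 mesenchymal, 4 Igf, 7 receptor tyrosine kinase, 3 chemokine, 2 interferon, 2 lysosome and 3 ribosome genes and 0 higher sterol genes. There, length centring gave 2 lower bHLH, 0 progenitor and Notch, 1 collagen, 1 matrix protease, 2 mesenchymal, 0 Igf, 3 chemokine and 1 interferon genes and 4 higher sterol genes. Lower TGF-beta and BMP genes numbered 10 with scaling to reads outside the table and 5 after length centring. The remaining moves on that side were of 1 gene each. Of 206 named genes that were 2-fold apart, 206 kept their direction in each alternative. This was fixed beforehand: a pseudocount cannot change a sign, and the other alternatives shift ratios by less than 2-fold. At least 2-fold apart stayed 206 with a pseudocount of 0.1 CPM, 200 with 5 CPM, 204 with size factors, 189 with reads outside the table, 200 with TMM and 193 after length centring. Depth limits the ratios of genes with few GFP reads, such as those of mitosis. An effect of 1 library cannot be told apart from its condition.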
